A study of Mus musculus with 6 samples.

Results

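The claudin and occludin genes of the epithelial tight junction were followed in kidney RNA-sequencing data from 3 WT mice and 3 Trpm2-/- mice treated with cisplatin. The members are the 10 genes Cldn1, Cldn2, Cldn3, Cldn4, Cldn7, Cldn8, Cldn10, Cldn12, Ocln and Tjp1, chosen by name among the 54532 genes of the deposited tables, and all 10 had enough reads to be tested. They cover claudins of several nephron segments, with the thick limb pair Cldn16 and Cldn19 left out, together with occludin and ZO-1, the protein that Tjp1 encodes. Mice of both genotypes, C57BL/6J by their labels, received cisplatin at 18 mg/kg and the kidneys were taken after 72 h. The labels give an age of 6 to 8 weeks, and the methods of the study give an older range. The Trpm2-/- allele removes exons that encode transmembrane segments and leaves no functional TRPM2 channel in any cell of the animal. WT mice were bought from a supplier and Trpm2-/- mice came from a line of another institution, so genotype and colony cannot be told apart. No untreated kidney was analysed here, so every difference given is between genotypes after cisplatin.

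Tight junctions seal the space between neighbouring tubule cells and set which ions can pass between them. Claudins are the membrane proteins that line this path. Some form pores, such as claudin-2 for cations and water in the proximal tubule, while others mainly act as barriers, and each nephron segment carries its own set. Occludin is a further membrane protein of the junction, and ZO-1 is a scaffold under the membrane that ties claudins and occludin to actin. Injury of tubules by toxins such as cisplatin is known to disturb this barrier.

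Total counts on genes were between 14053307 and 17150089 per library, and 3 counts, taken as the detection floor, were 0.175 to 0.213 CPM of these totals, which covers counting error only. Levels are otherwise given in CPM scaled to TMM-normalized library size. The members had between 272 and 7888 reads per library. Trpm2 itself had 5 to 27 counts in WT and 10 to 20 counts in Trpm2-/- libraries, and a count over the whole gene does not check the deletion. Genes of the mitochondrial genome took 4.43% to 4.72% of counts in WT and 7.91% to 11.04% in Trpm2-/- libraries. WT replicate 1 stood apart by 49.1 CPM of 5 uroplakin genes, markers of the urothelium that lines the renal pelvis, against 1.29 to 11.4 CPM in the other 5 libraries. Trpm2-/- replicate 4 stood apart by 539 CPM of podocyte markers, against 157 to 194 CPM in the others.

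The members lie on 7 chromosomes, and their positions in the deposited table are those of GRCm38. Cldn4 (chr5:134945119-134946934, minus strand) and Cldn3 (chr5:134986214-134987472, plus strand) are 39279 bases apart. Cldn1 (chr16:26356642-26371841, minus strand) lies 91293 bases from Cldn16. Cldn2 is on chrX:139800828-139811386, Cldn10 on chr14:118787908-118875489 and Tjp1 on chr7:65296165-65527781. None of the 75-base windows in the annotated transcripts of the members occurs in a transcript of another gene. Exons of Cldn3 share 40 bases with an antisense gene, whose reads cannot be told apart from those of Cldn3 because the strand setting of the counting is not given in the sources used here.

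RefSeq promoter windows of GRCm38.p6 were found for 9 of the 10 members, 14 windows in all, and each was searched over the 250 bases before the start. The windows of the 3 members that passed the test are shown with those of Cldn4 and Cldn2, the most abundant claudins. Each is written 5′ to 3′ on the strand of the gene and ends at the base before the start. Capitals mark the E-box CACCTG (or CAGGTG), the TATA box TATAAA (or TTTATA) and the GC box GGGCGG (or CCGCCC), searched on both strands. The motifs did not overlap each other in these windows.
Cldn1, chr16:26371840-26372089, minus strand: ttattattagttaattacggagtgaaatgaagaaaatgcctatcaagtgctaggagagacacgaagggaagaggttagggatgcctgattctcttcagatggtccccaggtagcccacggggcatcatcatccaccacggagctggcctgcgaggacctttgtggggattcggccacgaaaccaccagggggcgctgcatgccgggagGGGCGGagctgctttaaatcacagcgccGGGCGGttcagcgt
Tjp1, chr7:65371245-65371494, minus strand: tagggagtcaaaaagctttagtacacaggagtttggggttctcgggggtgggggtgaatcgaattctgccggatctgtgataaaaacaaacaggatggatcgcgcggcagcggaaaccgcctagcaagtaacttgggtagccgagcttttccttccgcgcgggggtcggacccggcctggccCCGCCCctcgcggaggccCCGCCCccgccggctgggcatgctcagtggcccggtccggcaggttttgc
Cldn4, chr5:134946935-134947184, minus strand: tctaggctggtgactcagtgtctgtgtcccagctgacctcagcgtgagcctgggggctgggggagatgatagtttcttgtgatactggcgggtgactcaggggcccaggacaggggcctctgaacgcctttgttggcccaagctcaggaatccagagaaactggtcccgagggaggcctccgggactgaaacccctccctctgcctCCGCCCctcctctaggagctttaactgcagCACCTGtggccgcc
Cldn2, chrX:139800558-139800807, plus strand: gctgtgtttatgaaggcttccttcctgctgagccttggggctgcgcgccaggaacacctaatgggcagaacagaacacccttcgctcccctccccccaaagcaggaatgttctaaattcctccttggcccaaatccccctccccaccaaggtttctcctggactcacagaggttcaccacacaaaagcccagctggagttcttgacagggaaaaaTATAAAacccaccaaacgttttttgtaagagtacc
Cldn10, chr14:118787621-118787870, plus strand: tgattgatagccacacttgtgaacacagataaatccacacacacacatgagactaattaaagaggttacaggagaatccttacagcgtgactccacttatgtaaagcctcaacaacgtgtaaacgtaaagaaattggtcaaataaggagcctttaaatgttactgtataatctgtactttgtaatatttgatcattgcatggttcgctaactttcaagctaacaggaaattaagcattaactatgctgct
The GC box was in 10 of the 14 member windows, and it occurs in 32.7% of the 32851 windows of the RefSeq table. Windows of a gene can overlap, and 2 windows of Cldn12 hold the same GC box site. Some windows lie mostly in exons of their own gene, with 221 exon bases in 1 window of Cldn7 and 218 in 1 of Cldn10. Cldn1 and Tjp1 held 2 GC boxes each, and Cldn4 held 1 beside an E-box at 14 bases before the start. An E-box was in 3 of the 14 windows, of Cldn4, Cldn7 and Ocln, against 17.2% of all windows. Only Cldn2 had a TATA box, at 35 bases before the start, and this motif is in 12.4% of all windows. The Cldn10 window shown held none of the 3 motifs and had a GC content of 36%. RefSeq gives Cldn10 another start 67079 bases downstream, whose window had 3 GC boxes and a GC content of 72.4%. Cldn10 is known to be read from alternative first exons into claudin-10a and claudin-10b, anion and cation pores, and the counts of the gene sum over both. The Tjp1 start lies inside the gene, 156537 bases from its far end in the table.

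In WT kidneys, Cldn2 and Cldn4 were the most abundant members per gene length. Their levels were 123 ± 8.81 FPKM (fragments per kilobase of gene length, scaled to library size) and 116 ± 18.4 FPKM (SD, n = 3), and the libraries of these genes overlapped. Cldn3 followed with 41.9 ± 0.623 FPKM, below every library of Cldn4 and above every library of Cldn7 (30.1 ± 1.66 FPKM). Cldn7, Cldn10 (26.3 ± 11.4 FPKM), Cldn1 (17.2 ± 2.73 FPKM), Cldn12 (16.5 ± 1.12 FPKM) and Cldn8 (14.6 ± 6.59 FPKM) each overlapped the next in this order. Ocln, at 7.52 ± 0.0899 FPKM, and Tjp1, at 6.49 ± 0.475 FPKM, were below all claudin members, and Tjp1 was below Ocln in every WT library.

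In Trpm2-/- kidneys this order was different at the top and at the bottom. Cldn4 came first with 170 ± 38.1 FPKM (SD, n = 3) and no longer overlapped Cldn2 at 87.2 ± 20.3 FPKM. Cldn1, at 33.0 ± 4.44 FPKM, came after Cldn7 and overlapped it. Cldn10 came last with 8.38 ± 2.43 FPKM, overlapping Ocln at 9.89 ± 2.56 FPKM, and Tjp1 at 11.6 ± 3.10 FPKM overlapped Cldn8 at 11.4 ± 2.57 FPKM.

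Of the 10 members, 2 rose (Cldn1 and Tjp1) and 1 fell (Cldn10) in Trpm2-/- kidneys by the quasi-likelihood test of edgeR, at a Benjamini-Hochberg adjusted p under 0.05 over the 15816 genes tested. Among all genes tested, 4.74% were called higher and 7.28% lower, 12.0% in either direction. The methods set an absolute log2 fold change above 1 with a p under 0.05, read here as the unadjusted p of edgeR. By this threshold, Cldn10 alone was called, and it was lower. This rule called 3.50% of all genes higher and 4.10% lower, 7.60% in all. All Trpm2-/- libraries lay on one side of all WT libraries for 6 of the members, 4 above and 2 below. Among all genes, 16.7% lay above and 16.8% below in this way, 33.5% in all. The median log2 fold change of the members was 0.18, against 0.02 over all genes. With 10 genes, these shares are a description of the members.

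**Figure D1:**
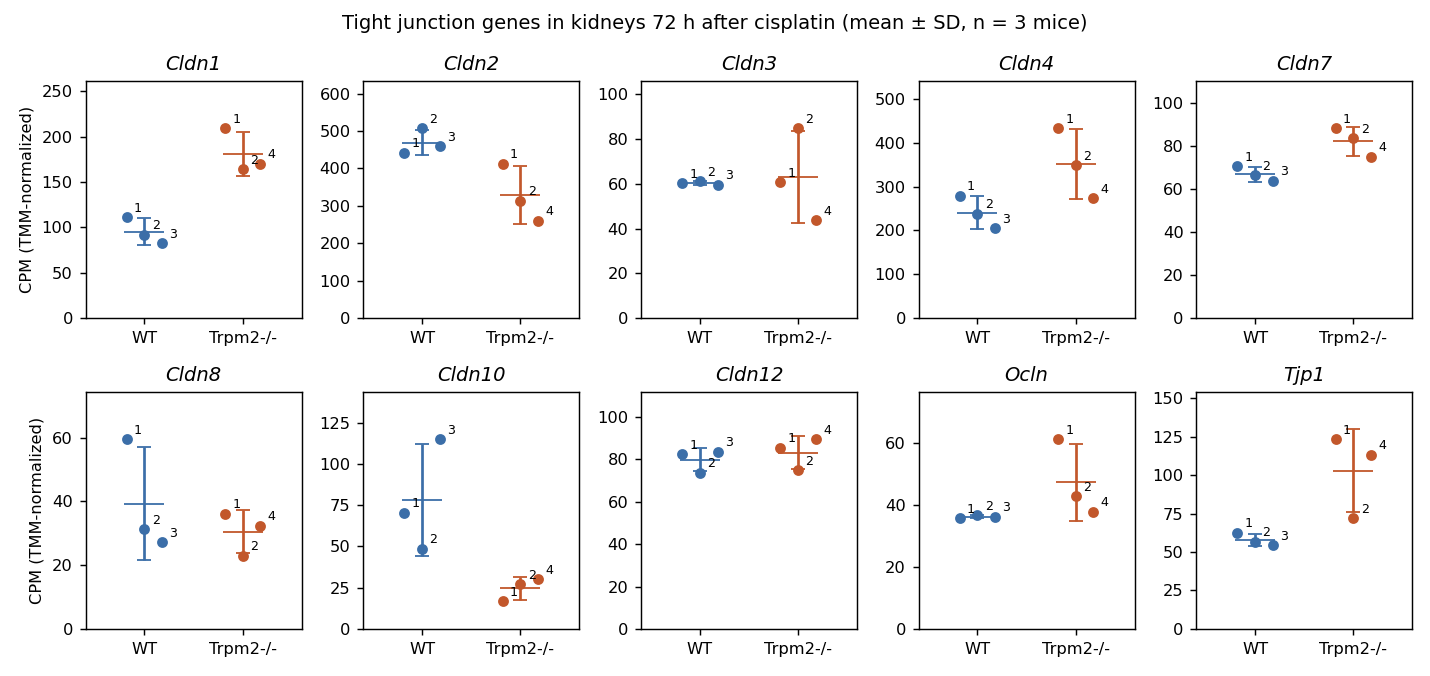
TMM-normalized CPM of each member (vertical axis, from 0) in WT and Trpm2-/- kidneys; points are mice with their replicate numbers, and bars are means ± SD of 3 mice. Cldn1 and Tjp1 lie higher and Cldn10 lower in all 3 Trpm2-/- mice, while the groups of Cldn3, Cldn4, Cldn8 and Cldn12 overlap.

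Among the pore-forming claudins, Cldn10 fell and Cldn2 was at its edge. Cldn10 had 70.4, 48.6 and 115 CPM in WT replicates 1, 2 and 3, and 16.6, 27.0 and 30.1 CPM in Trpm2-/- replicates 1, 2 and 4. The WT mice differed among themselves by more than the whole range of the Trpm2-/- mice, yet the lowest WT mouse was above the highest Trpm2-/- mouse. Cldn10 was 3.17-fold lower in Trpm2-/- mice, a log2 fold change of -1.67 with a standard error (SE) of 0.315 and an edgeR adjusted p of 0.0104. It kept this direction and an adjusted p under 0.05 in all 17 alternative settings, with log2 fold changes from -1.92 to -1.28.

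Cldn2, which forms the paracellular cation and water path of the proximal tubule, had 442, 507 and 459 CPM in WT mice and 413, 314 and 261 CPM in Trpm2-/- mice. All Trpm2-/- values were below all WT values, and Trpm2-/- replicate 1 was close to the lowest WT mouse. The log2 fold change was -0.51 (95% interval -0.92 to -0.11), with an unadjusted p of 0.0184 and an adjusted p of 0.0967 in the edgeR test. Over the fits that leave out a mouse, the log2 fold change of Cldn2 ran from -0.71 without Trpm2-/- replicate 1 (edgeR adjusted p = 0.0307) to -0.36 without Trpm2-/- replicate 4 (edgeR adjusted p = 0.213). Cldn2 passed in 3 of the 17 alternative settings, among them the fit with no filter on low counts, which reflects each gene's own spread less.

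Markers of the proximal tubule and the thick limb, where claudin-2 and claudin-10 are known to act, were read beside these genes. All 12 proximal tubule markers fell, with a median log2 fold change of -1.62, and their summed level was 5429 to 7076 CPM in WT and 2136 to 2747 CPM in Trpm2-/- libraries. Slc34a1, the phosphate carrier of the brush border, had a log2 fold change of -2.73. Of 7 thick limb markers tested, Umod alone fell (log2 fold change -1.97), all 7 were below 0, and the summed level was 790 to 2364 CPM in WT and 228 to 950 CPM in Trpm2-/- libraries, with overlap. Umod encodes uromodulin, the main protein of normal urine. Within each genotype, Cldn10 and Umod put the mice in the same order: replicates 2, 1 and 3 from low to high in WT mice and replicates 1, 2 and 4 in Trpm2-/- mice. The markers Cldn16, Cldn19 and Ppp1r1a put the mice in other orders. In these whole-kidney samples, fewer cells of a segment and less RNA per cell cannot be told apart. The part of these markers in the values of Cldn10 and Cldn2 was not tested.

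**Figure D2:**
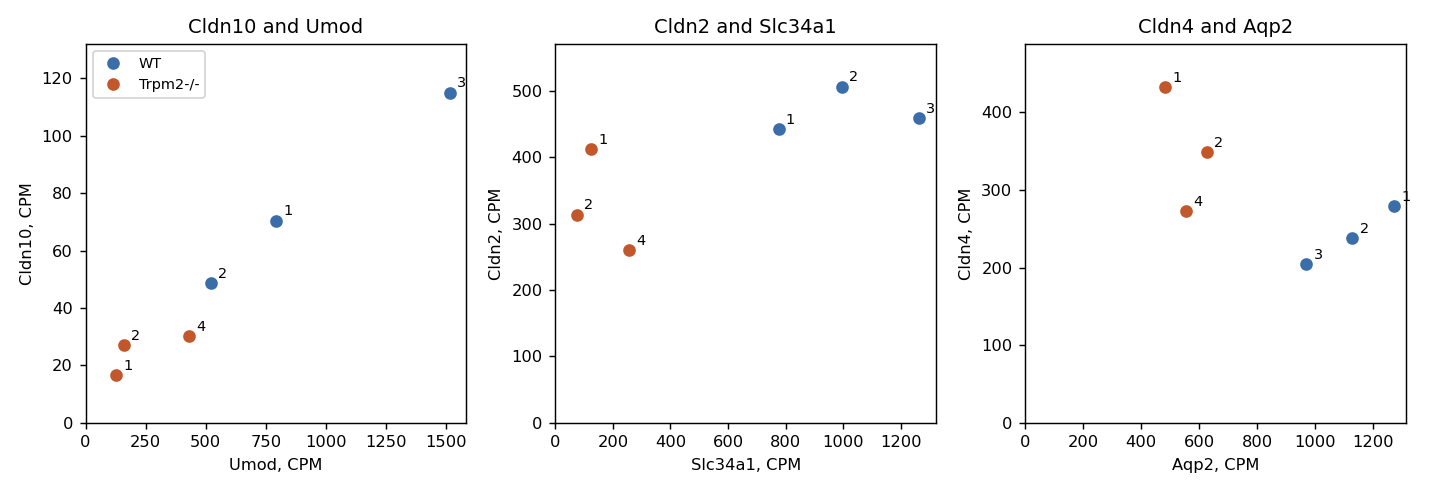
CPM of Cldn10, Cldn2 and Cldn4 (vertical axes) against CPM of a marker of a segment known for each (horizontal axes: Umod for the thick limb, Slc34a1 for the proximal tubule, Aqp2 for principal cells); points are mice with replicate numbers. Cldn10 is lower where Umod is lower, while Cldn4 is mostly higher in the Trpm2-/- mice, in which Aqp2 is lower.

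Of the claudins known mainly as barriers, Cldn1 rose. Claudin-1 is known in kidney from the parietal cells of Bowman's capsule and from distal segments. It had 112, 92.1 and 82.5 CPM in WT mice and 209, 164 and 170 CPM in Trpm2-/- mice. Every Trpm2-/- mouse was above every WT mouse, and replicate 1 was the highest of the Trpm2-/- mice. Its level was 1.90-fold higher, a log2 fold change of 0.92 (SE 0.159, edgeR adjusted p = 0.00699), just under the threshold of 1 used in the study. It kept an adjusted p under 0.05 in all 17 alternative settings, with log2 fold changes from 0.81 to 1.05. Without Trpm2-/- replicate 4, the library with the most reads of podocyte markers, the log2 fold change of Cldn1 was 0.98, and the part of glomerular cells in the values of Cldn1 was not tested.

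Claudin-4, claudin-7 and claudin-8 are barriers of the aldosterone-sensitive distal nephron, and claudin-4 and claudin-8 together are known to form its chloride path. None of these genes passed the test. Cldn4 had 279, 238 and 205 CPM in WT mice and 432, 348 and 273 CPM in Trpm2-/- mice, and only Trpm2-/- replicate 4 fell within the WT range. Its log2 fold change was 0.55 (95% interval 0.11 to 0.98, adjusted p = 0.0967 in the edgeR test). Cldn4 passed in 3 of the 17 alternative settings, again with the fit without a filter among them. Over the fits that leave out a mouse, the log2 fold change of Cldn4 ran from 0.37 without Trpm2-/- replicate 1 (edgeR adjusted p = 0.244) to 0.71 without Trpm2-/- replicate 4 (edgeR adjusted p = 0.0409). Cldn7 was between 63.9 and 70.9 CPM in WT mice and between 75.1 and 88.3 CPM in Trpm2-/- mice, without overlap. Its log2 fold change was 0.30 (95% interval 0.02 to 0.57, adjusted p = 0.151 in the edgeR test).

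Cldn8 had 59.5, 31.2 and 27.1 CPM in WT mice and 36.1, 22.9 and 32.4 CPM in Trpm2-/- mice, with overlap. The high WT value is that of replicate 1, the library with the uroplakin reads, in which Cldn11, a claudin outside the members, had 95 counts against 0 to 4 in the other libraries. Cldn11 was picked out after its values were seen. The log2 fold change of Cldn8 was -0.37 (95% interval -1.01 to 0.28), and without WT replicate 1 it turned to 0.06. Without that mouse, the log2 fold changes of Cldn1 and Cldn10 were 1.05 and -1.74.

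Markers of principal cells of the collecting duct, which express these claudins, were read beside them. Of 9 principal cell markers tested, 2 fell and 8 were below 0, with a median log2 fold change of -0.47 and a summed level of 1576 to 1999 CPM in WT and 897 to 1236 CPM in Trpm2-/- libraries. Aqp2, the water channel that vasopressin controls, fell by 1.02 on the log2 scale, and Aqp3, a water channel of the basolateral membrane, fell by 0.47, a call that held in 4 of the 17 alternative settings. The part of these markers in the values of Cldn4, Cldn7 and Cldn8 was not tested.

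Cldn3, a barrier claudin of several tubule segments, was almost equal in the WT mice, at 60.3, 61.0 and 59.5 CPM. The Trpm2-/- mice spread around this level with 60.7, 84.7 and 43.8 CPM. The log2 fold change was 0.06 (95% interval -0.40 to 0.53), and it was -0.21 without Trpm2-/- replicate 2. Cldn12, an atypical claudin linked to calcium transport, had 73.6 to 83.6 CPM in WT and 74.8 to 89.5 CPM in Trpm2-/- mice. Its log2 fold change was 0.06 (95% interval -0.23 to 0.35), so a change of Cldn12 as large as that of Cldn1 lies outside the interval.

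The scaffold gene Tjp1 had 62.5, 56.7 and 54.6 CPM in WT mice and 123, 72.2 and 113 CPM in Trpm2-/- mice. No Trpm2-/- mouse overlapped the WT mice, although replicate 2 was much nearer to them than the other two. Tjp1 was 1.78-fold higher, a log2 fold change of 0.83 (SE 0.193, edgeR adjusted p = 0.0241). This call was less firm than those of Cldn1 and Cldn10. The edgeR adjusted p of Tjp1 was 0.0503, 0.0977 and 0.112 without WT replicates 1, 2 and 3, and 0.0700 and 0.0552 without Trpm2-/- replicates 1 and 4, with log2 fold changes of Tjp1 from 0.68 to 0.88 in these fits. With the replicate number as a block, the adjusted p of Tjp1 was 0.0901 in edgeR. WT replicate 3 and Trpm2-/- replicate 4 have no same-numbered partner. The genotype difference of the block fit therefore rests on replicates 1 and 2 of each genotype.

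Ocln was almost constant in WT mice, at 35.8, 36.8 and 36.3 CPM, and had 61.3, 42.9 and 37.9 CPM in Trpm2-/- mice. The groups did not overlap, but the gap between them was small and Trpm2-/- replicate 1 carried most of the difference. The log2 fold change was 0.38 (95% interval -0.02 to 0.78, adjusted p = 0.194 in the edgeR test), and it was 0.15 without that mouse.

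**Figure D3:**
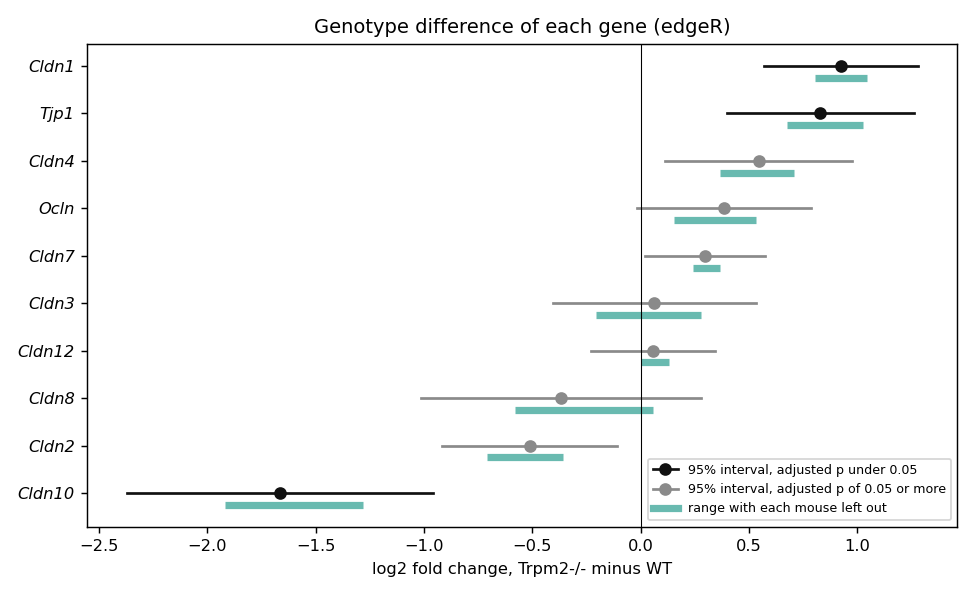
Log2 fold change (horizontal axis, Trpm2-/- minus WT) of each member with its 95% interval from the edgeR fit; black marks an adjusted p under 0.05, and green bars are the range over 6 fits that each leave out 1 mouse. The ranges of Cldn3 and Cldn8 cross 0, and those of the other members, called or not, do not, with that of Cldn12 beginning just above 0.

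Per gene length, Cldn2 and Cldn10 took a smaller share of all claudin transcripts in Trpm2-/- mice, and Cldn4 and Cldn1 a larger one. The 33 claudin genes in the table, 23 of them with a read, added up to 442, 410 and 404 FPKM in WT mice and 495, 436 and 373 FPKM in Trpm2-/- mice, so the sums overlapped. The 8 claudin members made up 91.3% to 96.2% of this sum. Cldn2 took 29.5% ± 3.08 of it in WT and 19.9% ± 1.89 in Trpm2-/- mice (SD, n = 3), and Cldn10 took 6.32% ± 2.90 and 2.00% ± 0.817. The share of Cldn4 was 27.6% ± 3.12 and 38.9% ± 3.29, and that of Cldn1 was 4.10% ± 0.449 and 7.62% ± 0.783. The ratio of Cldn4 to Cldn2 in FPKM was 1.16, 0.860 and 0.816 in WT replicates 1, 2 and 3, and 1.92, 2.03 and 1.92 in Trpm2-/- replicates 1, 2 and 4. This ratio is taken within a library, so library scaling does not enter it. It was nearly the same in all 3 Trpm2-/- mice although the level of each gene varied among them. The ratio of Cldn1 to Cldn2 did not overlap between the genotypes either, at 0.123 to 0.173 in WT and 0.348 to 0.449 in Trpm2-/- libraries. The ratio of Cldn4 to Cldn8 was 6.09 to 9.90 in WT and 10.9 to 19.7 in Trpm2-/- libraries. The ratios of Cldn2 to Cldn10, Cldn4 to Cldn3 and Cldn4 to Cldn7 overlapped: Cldn2 to Cldn10 was 3.11 to 8.13 in WT and 6.74 to 19.3 in Trpm2-/- libraries. As shares of 1 sum and ratios with genes in common, these values are not independent of each other, and they are given without a test.

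**Figure D4:**
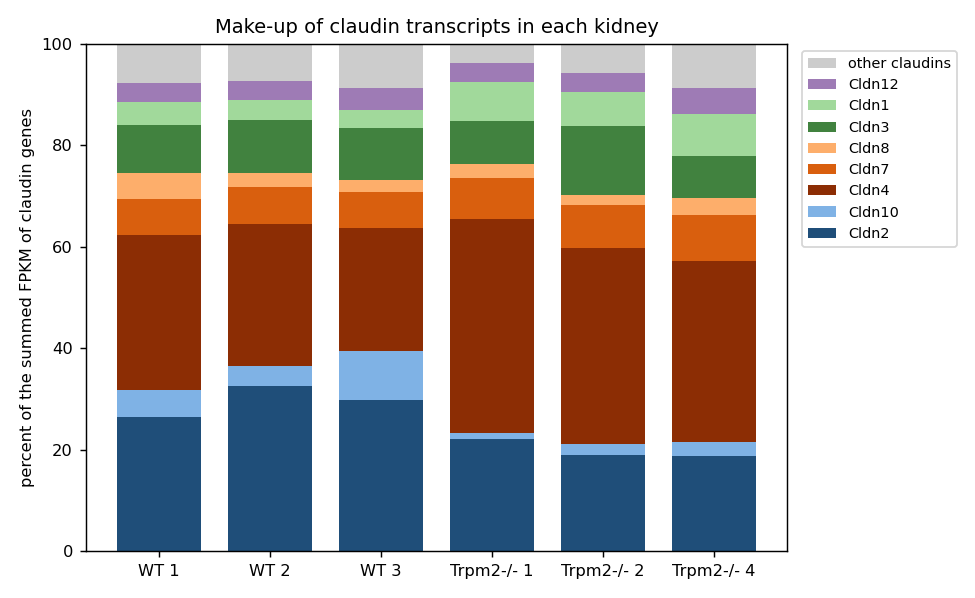
Percent of the summed FPKM of all claudin genes (vertical axis) that each claudin member takes in each of the 6 libraries. The blue parts, Cldn2 and Cldn10, are smaller and those of Cldn4 and Cldn1 larger in the 3 Trpm2-/- mice.

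The rest of the tight junction was described with lists compiled by hand. Of a list of 22 other claudin and claudin domain genes, 21 of them in the table, 7 were tested and 0 were called by edgeR, 2 of them (Cldn16 and Cldn15) with an unadjusted p under 0.05, while DESeq2 called 0 higher and 1 lower. Cldn16, of the thick limb pair, had a log2 fold change of -0.92 (adjusted p = 0.0701 in the edgeR test), and Cldn15, a cation pore, had -0.83. Of 10 other membrane proteins of the junction, 1 rose: Marveld2, which encodes tricellulin of the corners where 3 cells meet, by 0.58 on the log2 scale. Its level was 22.3 to 26.3 CPM in WT and 33.7 to 40.3 CPM in Trpm2-/- mice, without overlap.

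Of 26 plaque and polarity genes, 1 rose and 1 fell, 18 were above 0, and the median log2 fold change was 0.28. Magi3, a scaffold, rose from 13.6 to 17.3 CPM in WT mice to 22.7 to 36.7 CPM in Trpm2-/- mice (log2 fold change 0.94). Prkcz, an atypical protein kinase C of the polarity complex, fell from 58.3 to 62.3 CPM to 34.8 to 36.4 CPM (log2 fold change -0.77). Of 16 genes of adherens junctions and desmosomes, 2 rose, Cdh2 by 1.75 and Dsc2 by 1.41 on the log2 scale. Cdh2 encodes N-cadherin and Dsc2 desmocollin-2. Cdh2 had 3.79 to 7.09 CPM in WT mice and at least 9.09 CPM in each Trpm2-/- mouse.

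Of 9 tested genes for transcription factors that are known to act on claudin genes, 1 rose and 1 fell. Zeb1, a repressor of epithelial genes that binds E-boxes, rose from 4.88 to 5.70 CPM in WT mice to 10.3 to 13.3 CPM in Trpm2-/- mice (log2 fold change 1.13). Ovol1, a factor that favours the epithelial state, fell from 13.9 to 14.6 CPM to 6.72 to 7.04 CPM (log2 fold change -1.04). Of 14 tested genes for kinases, ligases and related proteins linked to claudin proteins, directly or through myosin, 5 rose and 1 fell. Epha2, a receptor kinase that phosphorylates claudin-4, rose by 1.06, Mylk, the kinase of the myosin light chain, by 0.80 and Rock2 by 0.74 on the log2 scale. Prss8, which encodes the protease prostasin, fell by 0.76.

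**Figure D5:**
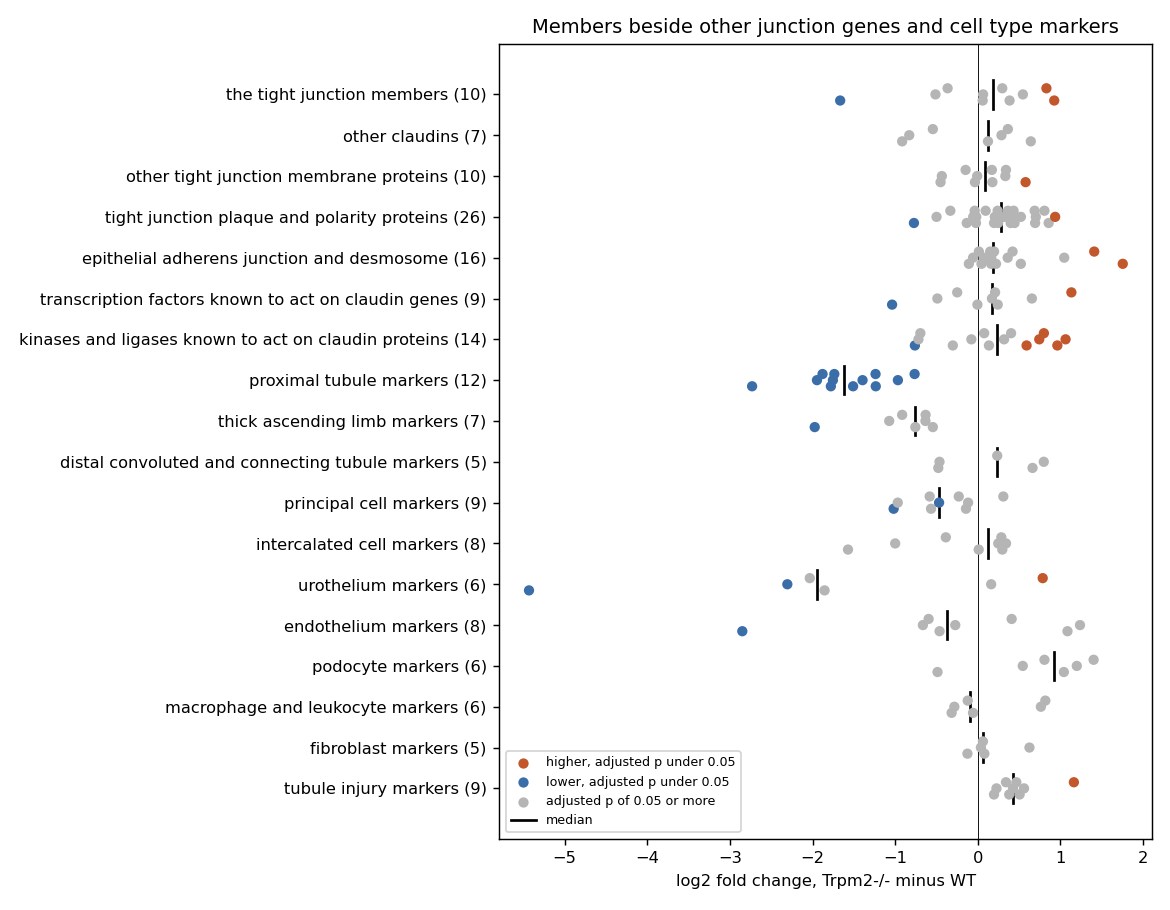
Log2 fold change (horizontal axis, Trpm2-/- minus WT) of every tested gene of each list, with the number tested in brackets; colour marks an adjusted p under 0.05, black lines are medians. All 12 proximal tubule markers lie below 0, while the members lie on both sides of it, with a median of 0.18.

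Markers of the other cells of the kidney were read beside the members. Urothelium markers had 6 tested genes of 9, of which Psca and Upk3a fell and Krt20 rose. WT replicate 1, the library with the uroplakin reads, was the highest for both falling genes. It had 13.5 CPM of Upk3a against 0.771 and 3.31 CPM in WT replicates 2 and 3, and 20.5 CPM of Psca against 5.91 and 8.04 CPM. Upk3a had 0, 4 and 2 counts in Trpm2-/- replicates 1, 2 and 4, around the detection floor of 3 counts. Krt20, in contrast, had 697 CPM in WT replicate 1 against 759 and 622 CPM in WT replicates 2 and 3, so it did not follow the uroplakin reads. It made up most of the summed level of this list, 647 to 782 CPM in WT and 984 to 1321 CPM in Trpm2-/- libraries. This sum is therefore not a measure of urothelium. Of 9 tubule injury markers, Sox9 rose (log2 fold change 1.16) and all 9 were above 0, with a summed level of 16963 to 18830 CPM in WT and 18311 to 26460 CPM in Trpm2-/- libraries. Spp1, which encodes osteopontin, made up most of this sum. Havcr1, which encodes Kim-1, had a log2 fold change of 0.51 (adjusted p = 0.0747 in the edgeR test). Of 8 endothelium markers, Plvap alone fell, with a log2 fold change of -2.85, and the sums were 130 to 206 CPM in WT and 70.1 to 254 CPM in Trpm2-/- libraries. The part of these cells in the values of the members was not tested.

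The remaining marker lists had no gene called by edgeR. Distal convoluted and connecting tubule markers had 5 tested genes, 1 with an unadjusted p under 0.05 and 0 called by DESeq2, and summed levels of 252 to 419 CPM in WT and 81.3 to 411 CPM in Trpm2-/- libraries. Intercalated cell markers had 8 tested genes, 2 with an unadjusted p under 0.05 and 2 called lower by DESeq2, and sums of 373 to 459 and 327 to 550 CPM. Podocyte markers had 6 tested genes, 3 with an unadjusted p under 0.05 and 1 called higher by DESeq2. Macrophage and leukocyte markers had 6 tested genes, 2 with an unadjusted p under 0.05 and 1 called higher by DESeq2, and sums of 124 to 142 and 145 to 193 CPM. Fibroblast markers had 5 tested genes, 0 with an unadjusted p under 0.05 and 0 called by DESeq2, and sums of 45.9 to 70.8 and 36.2 to 123 CPM.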

How the data were processed

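RNA was isolated with Trizol from kidneys of 3 WT and 3 Trpm2-/- mice, and libraries (NEBNext Ultra II, by the methods) were sequenced on an Illumina HiSeq instrument. The authors deposited whole-number read counts per gene, without normalization, and FPKM values of the same genes and libraries. The submitters' processing notes name HISAT2, StringTie and mm9, while 98.3% of the genes shared with the GENCODE mouse annotation, release 21, had its GRCm38 start and end, so GRCm38 positions are given. Annotation, counting tool and strandedness are not given in the sources used here.

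The main test was that of edgeR 4.0.16 in R 4.3.3: filterByExpr with default settings (15816 genes), TMM, and the two-sided quasi-likelihood test on genotype with Benjamini-Hochberg adjustment. The SE was derived from the log2 fold change and the F statistic (its size over the root of F), and 95% intervals use the degrees of freedom of the test. Called higher or lower means an adjusted p under 0.05. The methods do not say whether their p was adjusted. Replicates were separate mice, and pairs of them differed by a chi-square of 13.5 to 36.7 for each degree of freedom, above sampling noise, so each was counted as its own sample. P-values of the main test measure the spread between these mice, and the labels name no batch. The alternatives used DESeq2 1.42.0, limma-voom and limma 3.58.1 on log2(FPKM + 1) and log2(FPKM + 0.1), other scalings and filters, fewer genes, a replicate block, and 1 mouse left out. On simulated counts with a fold change of 4, edgeR recovered 171 of 200 changed genes, with 15 others called. The recovered genes are 88.1% of the 194 that passed the filter. Smaller fold changes, such as those of all members, were not simulated, so this recovery does not carry over to the members.

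The members and lists were chosen with earlier results of these data known. Named are the 10 members and up to 4 genes of each list with the smallest p, and 1 result that this rule names is not reported here; the uroplakin sum and Cldn11 were chosen after their values were seen.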

Additional observations from a re-analysis of the deposited data

How the results depend on the processing

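Cldn1 and Cldn10 kept their direction and an adjusted p under 0.05 in all 17 alternatives, with adjusted p up to 0.0461 and 0.0384. For Tjp1 this held in 9 of 17, with edgeR adjusted p from 2.29e-05 with no filter on low counts to 0.112 without WT replicate 3. The number of members called higher was 2, and it was 3 with the DESeq2 Wald test, where Cldn4 was added. It was 1 with limma on log2(FPKM + 1), limma on log2(FPKM + 0.1) and the replicate block, and 1 to 2 in the fits that leave out a mouse. The number called lower was 1, and it was 2 with no filter on low counts and with the DESeq2 Wald test, where Cldn2 was added, and 1 to 2 in the fits that leave out a mouse. Cldn4 also passed in both of these settings. With no filter, the edgeR p of Cldn10 was 5.03e-23 against 0.00041 in the main fit. That of Cldn8 was 0.0274 against 0.235, while that of Cldn7 rose to 0.0818 from 0.0385. The log2 fold changes of these genes hardly moved. The p-values of that fit thus reflect each gene's own spread between mice less than those of the main fit, and its calls carry little weight. The log2 fold change of Cldn3 reversed to -0.21 without Trpm2-/- replicate 2, and its range over the fits that leave out a mouse was -0.21 to 0.28. That of Cldn8 reversed to 0.0575 without WT replicate 1, with a range of -0.58 to 0.0575. The cause was not tested. The other named genes were refitted only where their unadjusted edgeR p was under 0.05, which left 46 genes and 781 refits. No direction reversed, 50 refits lost and 45 gained the call. These genes were picked by their p in the same mice, so a reversal was unlikely from the start.

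Over all genes, 750 were called higher and 1152 lower, against 160 and 470 without WT replicate 3, 176 and 521 without WT replicate 2, 421 and 848 without Trpm2-/- replicate 1, 341 and 661 with the replicate block, and 1262 and 1692 with no filter. Only numbers 1 and 2 occur in both genotypes, so the genotype difference of the block fit rests on those mice. Samples of the same number are different mice. The deviations of same-numbered libraries correlated by 0.06 and -0.01, and those of differently numbered libraries by -0.25 to 0.22. With so few pairs, these values cannot show whether same-numbered libraries shared a processing step. Upper quartile scaling gave 921 higher and 1055 lower. With 3 mice per genotype, Cldn2, Cldn4, Cldn7 and Ocln did not pass after adjustment, which does not show that they were equal.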
